A study of Mus musculus with 11 samples.

Results

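The comparison described here was the change in cardiac gene expression from postnatal day 3 (P3) to postnatal day 7 (P7) in sham-operated mice. It was drawn from 6 of the 11 RNA-seq libraries of the study, namely the 3 P3 sham and the 3 P7 sham libraries as the sample titles name them, and every gene that passed the filter on low counts entered it. The study placed wild type mice of the C57BL/6 strain into pulmonary artery banding (PAB), an operation that narrows the pulmonary artery and loads the right ventricle, or into sham surgery. The other 5 libraries were 3 P3 PAB and 2 P7 PAB libraries, and they serve here for comparison and share the estimate of spread in the fit. All animals, controls included, were operated on within hours of birth under hypothermia, and the sham animals had the chest opened without the band, so an unoperated heart was not measured. The labels name the tissue as heart and the methods name ventricles. Total RNA was extracted with TRIzol and sequenced as paired-end reads on a HiSeq X instrument. The labels do not say whether replicates were separate animals, so the p-values below measure only the spread between these libraries.

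In the days after birth the rodent heart takes over the full circulation in an oxygen-rich environment, and its muscle cells pass from dividing to enlarging. Fetal sarcomere proteins are replaced by adult forms, mitochondria multiply, milk fat becomes a main fuel in place of glucose and lactate, and most cardiomyocytes leave the cell cycle after a last round in which nuclei divide without cytokinesis. Capillaries and a collagen network grow around the muscle cells over the same days.

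Levels are given as CPM, the counts of a gene scaled to 1000000 counts of the effective library size. Gene changes are log2 fold changes of P7 over P3 ± standard error (SE) from edgeR's quasi-likelihood test with Benjamini-Hochberg adjusted p, with n = 3 and 3 libraries throughout. A gene is said to have risen or fallen where the change reached 1.5-fold with an adjusted p no larger than 0.05. The 11 libraries held 19274045 to 26820228 counts. Genes of the mitochondrial chromosome took 12.1% ± 0.535 (SD, n = 3) of the counts at P3 and 21.6% ± 0.603 (SD, n = 3) at P7, without overlap (exact permutation test, two-sided p = 0.1, the smallest value that 3 against 3 libraries allow). This share leaves out near-identical copies of these genes in the nuclear genome, and how reads were divided among the copies was not tested. Xist, the RNA that silences an X chromosome in female cells, was at 1061, 0.723 and 0.552 CPM at P3 and 629.8, 854 and 935 CPM at P7, and the Y-linked Uty was at 0, 20.8 and 21.7 CPM at P3 and 0, 0.0971 and 0 CPM at P7. Thus 1 P3 sham library and all 3 P7 sham libraries were of the Xist-expressing kind, and 2 P3 sham libraries and all 5 PAB libraries were of the Y-expressing kind. A fit that kept only the Xist-expressing P3 sham library at P3 shared 493 of the 888 genes that rose (55.5%) and 615 of the 906 that fell (67.9%). P7 sham library 1 stood apart for genes of antigen presentation, as described with them. Among marker lists of 8 genes each, no cardiomyocyte or endothelial marker rose or fell by that rule, and 3 fibroblast markers rose, beside 5.62% of all genes tested. The cardiomyocyte marker Tnni3 passed the limit on the adjusted p, with a change below 1.5-fold. All 8 endothelial markers had changes above 0, and their mean summed level was 1333 CPM at P3 and 1617 CPM at P7. In whole tissue, fewer cells of a type and less RNA per cell cannot be told apart.

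Of 15808 genes tested, 888 rose from P3 to P7 (5.62%) and 906 fell (5.73%). The median log2 change over all genes was 0.00, and it was 0.92 among the genes that rose and -0.85 among those that fell. A change of at least 2-fold was reached by 389 of the genes that rose and 306 of those that fell, and of at least 4-fold by 77 and 80. These sizes are fitted values, and 6 of the 77 and 29 of the 80 had no counts in the 3 libraries of the lower age, so their size was not measured. Without regard to size, 5216 genes passed the limit on the adjusted p. For 1734 of the 1794 genes that rose or fell, the 3 P3 and 3 P7 values did not overlap, against 45.3% of all genes tested. Calls and overlap came from the same libraries, so this count is a description and lends the calls no support. Scaling by the plain total count moved the median of all genes to -0.31 and gave 397 genes that rose and 2879 that fell. Genes that code for proteins made up 618 of the genes that rose and 802 of those that fell.

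**Figure D1:**
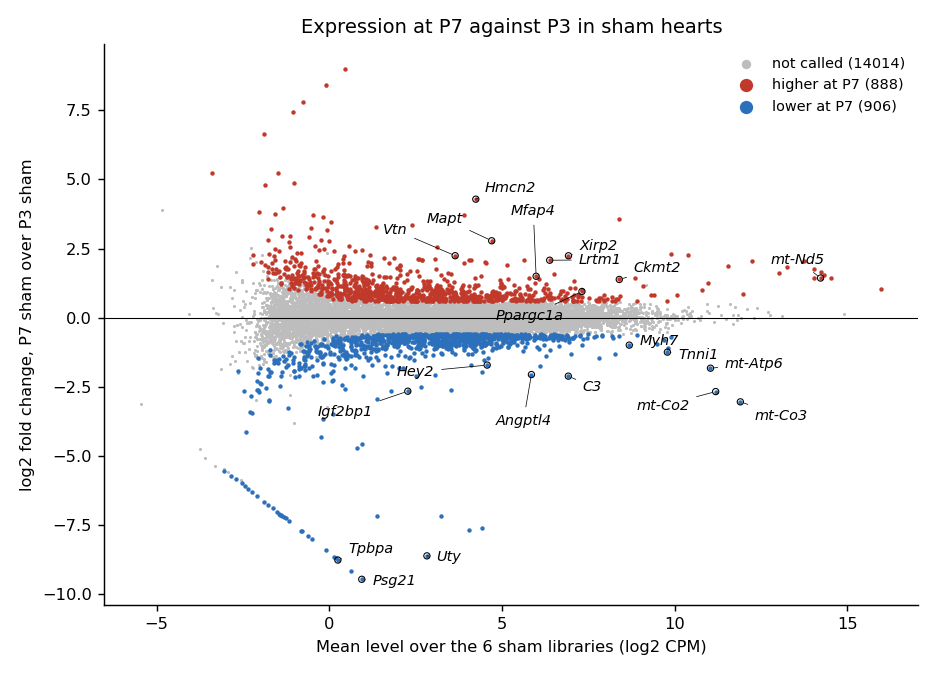
Log2 fold change of P7 sham over P3 sham against the mean level over the 6 sham libraries (log2 CPM), with 1 point per gene tested, genes that rose in red and genes that fell in blue. The 888 and 906 colored genes lie on both sides of 0, and the slanted blue line at the lower left holds genes with no counts at P7, whose fitted change is not a measured size.

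The 8 largest gains in CPM were those of mitochondrial transcripts and their nuclear copies. Mitochondrial DNA specifies 13 subunits of the respiratory chain. As listed, 9 of the 13 rose and 3 fell. The transcript mt-Nd5, a subunit of complex I, was at 10700.0, 9138 and 11285 CPM at P3 and 26116, 26861 and 31102 CPM at P7 (log2 change 1.43 ± 0.10, adjusted p = 1.93e-07). For mt-Cytb, the cytochrome b of complex III, the levels were 13374, 12078 and 12970.0 CPM at P3 and 34360.0, 33240.0 and 36161 CPM at P7 (log2 change 1.43 ± 0.07, adjusted p = 2.92e-09). In both, every P7 library was above every P3 library. In contrast, mt-Co2, a subunit of cytochrome c oxidase, was at 4065, 3881 and 4176 CPM at P3 and 627, 739 and 539 CPM at P7 (log2 change -2.67 ± 0.10, adjusted p = 1.11e-10). Its neighbor mt-Co3 was at 7044, 6702 and 6784 CPM at P3 and 1006, 780.2 and 708 CPM at P7 (log2 change -3.04 ± 0.11, adjusted p = 5.38e-11), and mt-Atp6, a subunit of ATP synthase, was at 3462, 3239 and 3154 CPM at P3 and 1096, 872 and 815 CPM at P7 (log2 change -1.82 ± 0.10, adjusted p = 6.12e-09). These 3 genes each have a nuclear pseudogene copy of at least 95% identity whose counts changed in the opposite direction. The chromosome 1 copy of mt-Co2, Gm28661, was at 9875, 9287 and 9072 CPM at P3 and 29487, 28835 and 29820.0 CPM at P7 (log2 change 1.64 ± 0.06, adjusted p = 1.92e-10). The copy of mt-Co3, Gm28437, was at 7766, 7502 and 7538 CPM at P3 and 25863, 26221 and 26065 CPM at P7 (log2 change 1.78 ± 0.06, adjusted p = 5.38e-11), and the copy of mt-Atp6, Gm10925, was at 5437, 5078 and 5360.2 CPM at P3 and 22579, 21469 and 22040.0 CPM at P7 (log2 change 2.06 ± 0.07, adjusted p = 5.38e-11). The mitochondrial gene held 30.0% of the summed counts of mt-Co2 and its copies at P3 and 2.11% at P7. For mt-Co3 this share was 47.4% and 3.09%, and for mt-Atp6 it was 38.3% and 4.04%. In PAB libraries the share for mt-Co3 was 47.4% at P3 and 19.5% at P7. Summed with their copies, mt-Co2, mt-Co3 and mt-Atp6 had log2 changes of 1.16, 0.90 and 1.42, and all 13 genes lay between 0.90 and 2.07. How the authors' counting divided reads among the copies was not tested, and values of single mitochondrial genes with copies are uncertain for that reason.

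**Figure D2:**
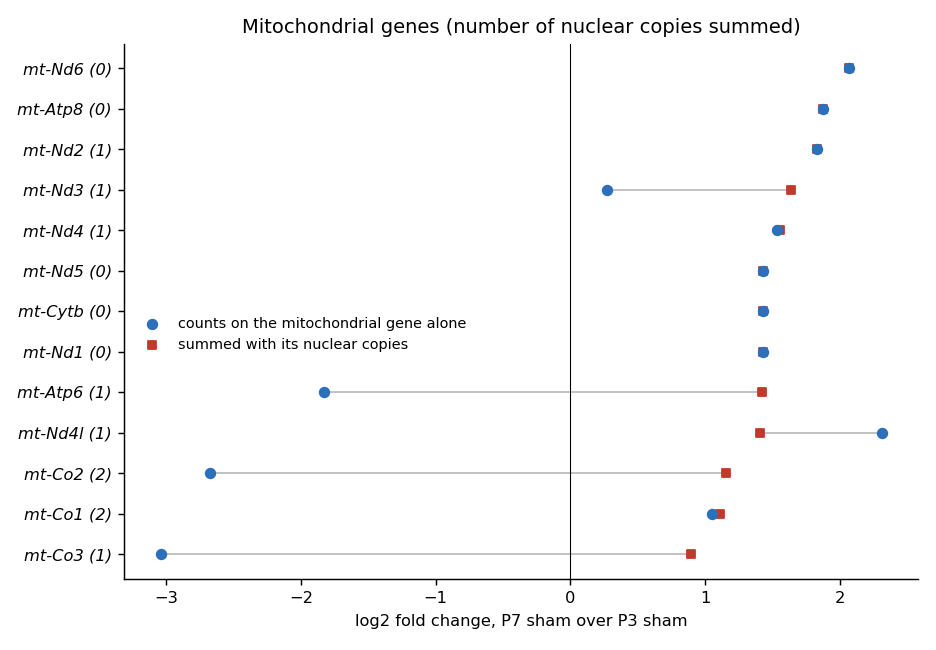
Log2 fold change of P7 sham over P3 sham for the 13 protein-coding genes of mitochondrial DNA, from counts on the gene alone (circles) and from counts summed with its nuclear copies (squares), with the number of copies in parentheses. All 13 squares lie between 0.90 and 2.07, and mt-Co2, mt-Co3 and mt-Atp6 cross from below 0 to above it.

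Pseudogenes were frequent among the genes that rose. Of 319 processed pseudogenes tested, 101 rose (31.7%) and 21 fell, and of 13447 protein-coding genes 618 rose (4.60%). In 60 pairs of a processed pseudogene and its parent gene by name, 29 pseudogenes and 1 parent rose, with medians of 0.82 and -0.08 on the log2 scale. The pseudogene Fabp3-ps1, a copy of the gene for the heart fatty acid binding protein, was at 6.86, 6.5 and 6.02 CPM at P3 and 32.1, 25.4 and 25.3 CPM at P7 (log2 change 2.09 ± 0.11, adjusted p = 3.25e-09). Reads of a processed pseudogene and its parent are hard to divide, and the part of this in the counts was not tested.

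Among the genes with the strongest rise, Hmcn2, which encodes a large matrix protein of the hemicentin family, was at 1.42, 2.17 and 1.93 CPM at P3 and 33.9, 32 and 42.2 CPM at P7 (log2 change 4.28 ± 0.25, adjusted p = 1.33e-08). Mapt, the microtubule-associated protein tau, was at 8.24, 5.63 and 6.02 CPM at P3 and 48.9, 42.9 and 44.7 CPM at P7 (log2 change 2.78 ± 0.12, adjusted p = 9.57e-10). Xirp2, an actin-binding protein of the intercalated disc, was at 56.9, 41.6 and 29 CPM at P3 and 204, 206 and 193 CPM at P7 (log2 change 2.24 ± 0.17, adjusted p = 3.04e-07). In each of the 3, every P7 library was above every P3 library, which was a condition for their choice. Vtn, vitronectin, a plasma and matrix adhesion protein, reached 18.8, 22.5 and 20.7 CPM at P7 from 4.46, 4.49 and 4.14 CPM at P3 (log2 change 2.24 ± 0.18, adjusted p = 4.71e-07). Lrtm1, a leucine-rich membrane protein, was at 28, 29.7 and 38.3 CPM at P3 and 138, 133 and 134 CPM at P7 (log2 change 2.08 ± 0.11, adjusted p = 5.08e-09). The noncoding RNA Gm26735 was at 3.35, 2.81 and 0 CPM at P3 and 24.8, 36.5 and 22.7 CPM at P7, and its call was lost with DESeq2. Erdr1, a gene at the pseudoautosomal end of the sex chromosomes, was at 40.6, 5.32 and 11.1 CPM at P3 and 97.1, 62.6 and 83.7 CPM at P7 (log2 change 2.10 ± 0.55, adjusted p = 0.00921), and its call was lost when only the Xist-expressing P3 library was kept.

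Among the strongest falls, Angptl4, a secreted inhibitor of lipoprotein lipase, was at 91.7, 93 and 95.2 CPM at P3 and 20, 23.3 and 23.9 CPM at P7 (log2 change -2.06 ± 0.10, adjusted p = 1.54e-09). Acot1, a cytosolic acyl-CoA thioesterase, was at 98.8, 112 and 104 CPM at P3 and 31.7, 33.7 and 29.8 CPM at P7 (log2 change -1.73 ± 0.09, adjusted p = 7.11e-09). Both genes are known targets of fatty acid-sensing nuclear receptors, and in both the 3 libraries of an age lay close together. Hey2, a transcription factor of the compact ventricular wall, was at 38.7, 31.2 and 39.6 CPM at P3 and 9.36, 11.1 and 12.8 CPM at P7 (log2 change -1.71 ± 0.13, adjusted p = 2.99e-07). Bmp7, a bone morphogenetic protein ligand, was at 34.8, 34.1 and 30.6 CPM at P3 and 12.3, 10.7 and 11.2 CPM at P7 (log2 change -1.54 ± 0.08, adjusted p = 5.08e-09). Tmem254c was at 22.3, 20.9 and 16.1 CPM at P3 and 3.35, 4.27 and 2.26 CPM at P7 (log2 change -2.60 ± 0.21, adjusted p = 6.68e-07), and it has near-identical neighbors, so its reads cannot be assigned with certainty.

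**Figure D3:**
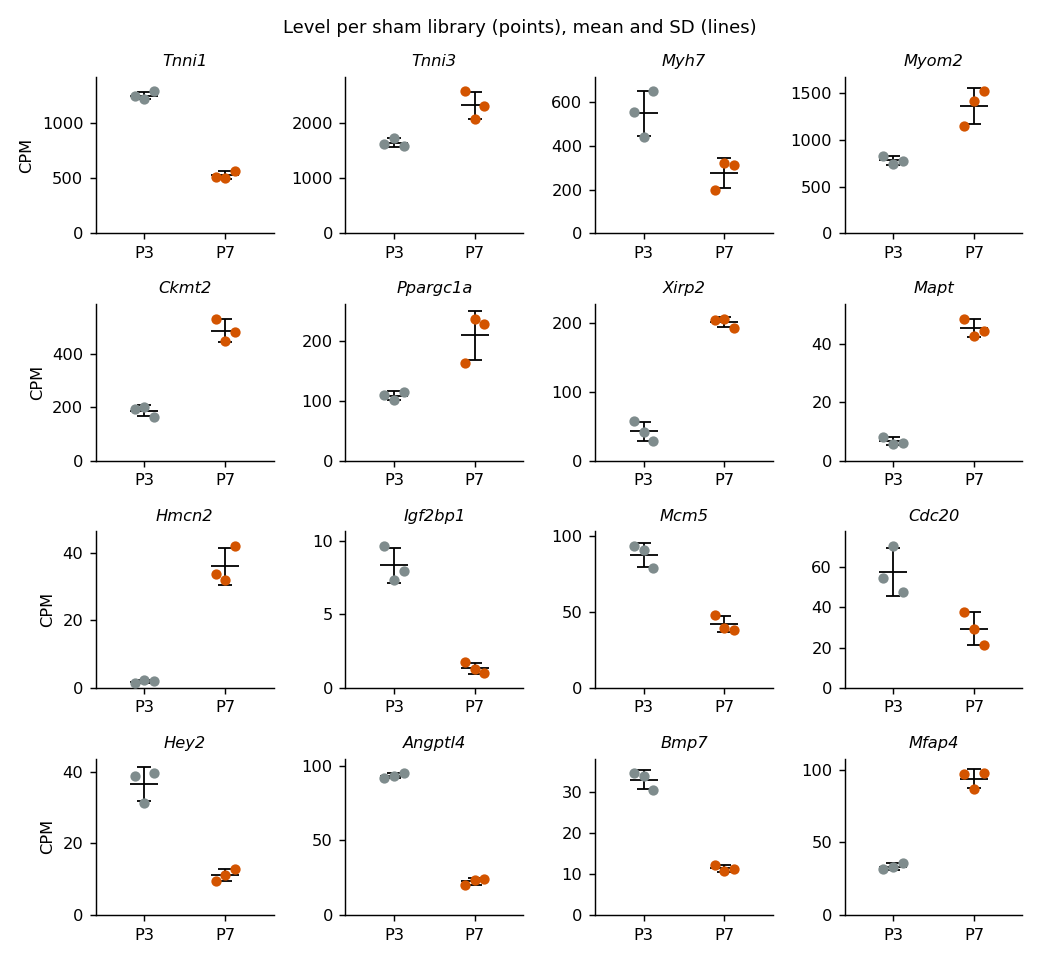
Level in CPM in each P3 and each P7 sham library for 16 genes named in the text, with the mean and SD as lines and each axis starting at 0. The P3 and P7 points do not overlap for any of the 16 genes, Tnni3 included, whose change stayed below 1.5-fold. For the leading rises and falls among them this was a condition for their choice.

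The question of sarcomere maturation is addressed by 12 fetal-type and 21 adult-type contractile genes. Of the fetal-type genes 4 fell and none rose, with a median log2 change of -0.50, beside 5.73% of all genes that fell. The 4 were Tnni1, Myh7 and the genes of smooth muscle type Myl9 and Cnn1. Of the adult-type genes 1 rose and none fell, with a median of 0.09, near the 5.62% of all genes that rose. Under total-count scaling 8 fetal-type genes fell, with a median of -0.82, and no adult-type gene passed. Tnni1, the slow skeletal troponin I of the fetal heart, was at 1239.5, 1216 and 1285 CPM at P3 and 509.6, 502 and 567 CPM at P7 (log2 change -1.24 ± 0.07, adjusted p = 7.55e-09). Tnni3, the cardiac troponin I that replaces it, was at 1628, 1733 and 1576 CPM at P3 and 2576, 2075 and 2315 CPM at P7 (log2 change 0.50 ± 0.09, adjusted p = 0.00049), a change below 1.5-fold. Per kilobase of exon, Tnni1 went from 346 to 146 CPM and Tnni3 from 798 to 1125 CPM. Thus at P7 the adult form was the more abundant by a wider margin than at P3. Myh7, the slow beta myosin heavy chain, was at 556, 442 and 649 CPM at P3 and 196, 319.9 and 312 CPM at P7 (log2 change -0.99 ± 0.23, adjusted p = 0.00437), with Myh6, the alpha chain, at 30357, 29221 and 28446 CPM at P3 and 34822, 28159 and 32721 CPM at P7 (log2 change 0.12, adjusted p = 0.257). Myl9, a regulatory light chain of smooth muscle type, was at 439.7, 511 and 379.8 CPM at P3 and 217, 176 and 143 CPM at P7 (log2 change -1.31 ± 0.19, adjusted p = 0.000123). Myom2, an M-band protein of fast mature sarcomeres, was at 834, 739 and 773 CPM at P3 and 1155, 1417 and 1522 CPM at P7 (log2 change 0.80 ± 0.10, adjusted p = 4.17e-05). Cnn1, smooth muscle calponin, was lower as well at log2 change -0.87, a call that was lost when single sham libraries were left out. With only the Xist-expressing P3 library kept, 3 fetal-type contractile genes fell and their median was -0.29.

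Ratios of later to earlier forms were followed in 21 pairs, called isoform pairs here, as the log2 ratio of the 2 genes within each library. Not all are isoforms of a protein, since Igf1 and Igf2 are separate growth factors, and Actc1 is paired with both Acta2 and Acta1. In 15 pairs the P3 and P7 ratios did not overlap, and in 14 of these the later form had gained by P7. For the levels of single genes, 45.3% of all genes tested did not overlap between the ages. With 3 against 3 libraries an exact permutation test cannot go below 0.1 for a pair, and the Benjamini-Hochberg value over the 21 pairs was 0.14. The ratio of Tnni3 to Tnni1 was 0.39, 0.51 and 0.29 at P3 and 2.34, 2.05 and 2.03 at P7, a mean shift of 1.74. For Myh6 to Myh7 the ratio was 5.77, 6.05 and 5.45 at P3 and 7.47, 6.46 and 6.71 at P7, a shift of 1.12. The insulin-sensitive glucose transporter Slc2a4 gained on the general transporter Slc2a1, with log2 ratios of 1.71, 2.20 and 2.15 at P3 and 3.23, 3.22 and 3.34 at P7. Cox6a2, the muscle form of a cytochrome c oxidase subunit, gained on Cox6a1 with ratios of 1.52, 1.27 and 1.45 at P3 and 2.27, 2.37 and 2.56 at P7. Cpt1b, the muscle carnitine palmitoyltransferase that admits fatty acids to mitochondria, gained on the liver form Cpt1a by 0.54, and Cpt1a itself changed by -0.54 and Cpt1b by -0.00. Shifts between 0.27 and 0.64 were seen for Igf1 to Igf2, Pgam2 to Pgam1, Cox8b to Cox8a, Actc1 to Acta2, Hk2 to Hk1, Ckm to Ckb, Eno3 to Eno1 and Slc25a4 to Slc25a5. The ratio of Ckmt2 to Ckmt1 shifted by 1.34, but Ckmt1 had only 5 to 14 counts per sham library. Cyclin D3 relative to cyclin D2 moved the other way, with log2 ratios of -0.87, -0.79 and -0.89 at P3 and -1.40, -1.76 and -1.67 at P7. The ventricular to atrial light chain pairs, Myl2 to Myl7 and Myl3 to Myl4, overlapped between ages, as did Tnnt2 to Tnnt1 and Actc1 to Acta1.

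**Figure D4:**
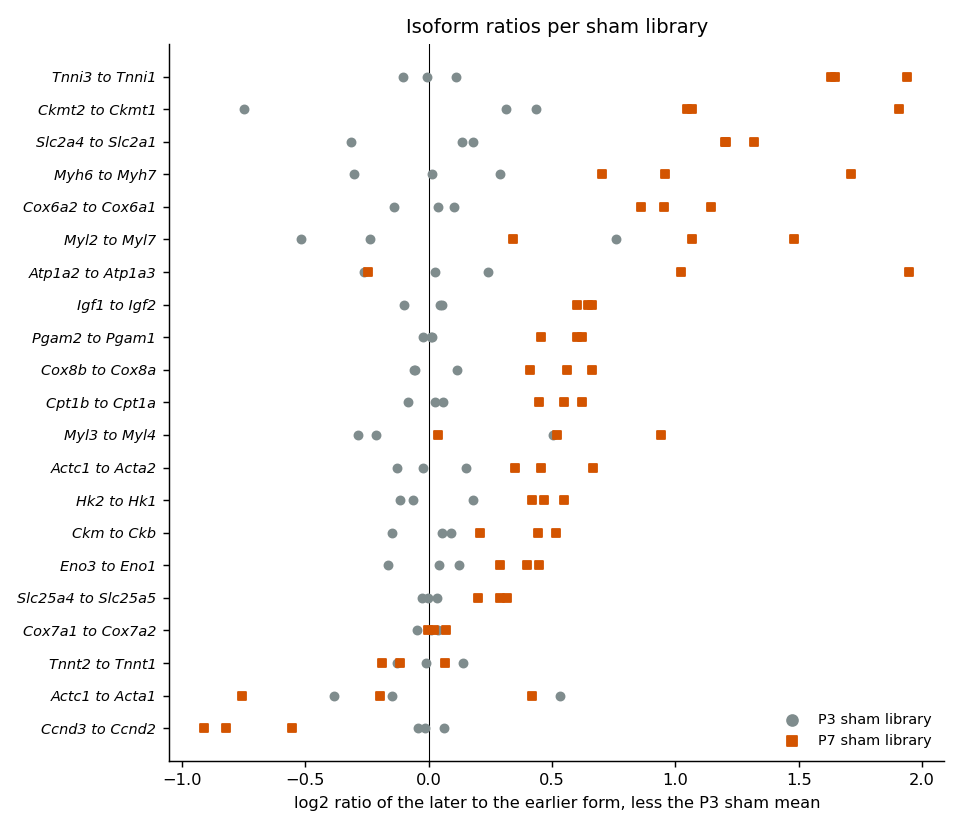
Log2 ratio of the later to the earlier form in each sham library, less the mean of the 3 P3 sham libraries, for 21 isoform pairs. In 14 pairs all 3 P7 squares lie to the right of all 3 P3 circles, and Ccnd3 to Ccnd2 lies to the left.

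Of 26 calcium handling genes 2 rose and 4 fell, beside 5.62% and 5.73% of all genes tested, with a median log2 change of 0.09. The 2 rises are near the share over all genes, and under total-count scaling none rose and 5 fell. Cacna1h, a T-type calcium channel of fetal and pacemaker cells, was at 68, 68.6 and 66.5 CPM at P3 and 32.3, 26.3 and 29.4 CPM at P7 (log2 change -1.21 ± 0.10, adjusted p = 1.2e-06). Hrc, a calcium-binding protein of the sarcoplasmic reticulum, was at 209.9, 207 and 237 CPM at P3 and 369.7, 352 and 364 CPM at P7 (log2 change 0.73 ± 0.07, adjusted p = 3.6e-06). S100a1, a calcium sensor that acts on the reticulum pump, was at 111, 117 and 99.6 CPM at P3 and 216, 186 and 176 CPM at P7 (log2 change 0.82 ± 0.09, adjusted p = 1.54e-05). The pump itself, Atp2a2, was at 6160.2, 5865 and 6603 CPM at P3 and 6942, 7118 and 7664 CPM at P7 (log2 change 0.22, adjusted p = 0.0308), and the release channel Ryr2 was at 1357, 1312 and 1356 CPM at P3 and 1169, 1446 and 1556 CPM at P7. Slc8a1, the sodium-calcium exchanger, was at 401, 362 and 302 CPM at P3 and 211, 226 and 242 CPM at P7 (log2 change -0.65 ± 0.12, adjusted p = 0.000914), and without P3 sham library 1 its change was -0.55 and its call was lost. In that setting, without P7 sham library 2 and with only the Xist-expressing P3 library kept, 2 calcium handling genes fell. Of 28 ion channel genes of the action potential, 4 rose and 2 fell, with a median log2 change of 0.23. Under total-count scaling 2 rose and 7 fell, with a median of -0.08. Pacemaker channels moved apart, with Hcn4 at 14.3, 15.2 and 18.2 CPM at P3 and 6.75, 6.22 and 8.92 CPM at P7 (log2 change -1.11 ± 0.19, adjusted p = 0.000416) and Hcn2 at 12, 11 and 12.2 CPM at P3 and 30, 21.6 and 26.8 CPM at P7 (log2 change 1.16 ± 0.12, adjusted p = 7.32e-06). Kcnd2, a pore subunit of the transient outward potassium current, was at 5.71, 6.81 and 6.62 CPM at P3 and 12.7, 11.3 and 14 CPM at P7 (log2 change 0.99 ± 0.13, adjusted p = 6.07e-05). Kcne1, an accessory subunit of the slow delayed rectifier, was at 134, 143 and 136 CPM at P3 and 235, 219.9 and 227 CPM at P7 (log2 change 0.72 ± 0.06, adjusted p = 1.58e-06), and Kcnj2 of the inward rectifier was at 41.1, 27.9 and 40.4 CPM at P3 and 37.5, 45.3 and 51.1 CPM at P7 (adjusted p = 0.115).

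Nuclear genes of energy metabolism moved little as groups. Of 38 nuclear subunits of complex I, 2 rose and none fell, with a median log2 change of 0.16. Of 46 subunits of complexes II to V, 2 rose and 2 fell, with a median of 0.08. The shares that rose in both lists, and the share that fell in complexes II to V, are near the 5.62% and 5.73% of all genes. For complex I the share that fell is below the 5.73%. These counts of 2 moved between 0 and 4 when single sham libraries were left out. Ndufa1, a small subunit of complex I, was at 83.5, 85.4 and 75.1 CPM at P3 and 139, 121 and 132 CPM at P7 (log2 change 0.68 ± 0.07, adjusted p = 5.07e-06). Of 37 genes of fatty acid uptake and oxidation none rose and 1 fell, below the shares over all genes, with a median of -0.02. Under total-count scaling 9 of the 37 fell, with a median of -0.33. The fatty acid transporter Cd36 was at 939, 832 and 862 CPM at P3 and 810.3, 968 and 880.4 CPM at P7, and Cpt1b was at 625, 599 and 578 CPM at P3 and 623, 582 and 592 CPM at P7. The gene that fell was Acot2, a mitochondrial acyl-CoA thioesterase, at 145, 156 and 147 CPM at P3 and 95.2, 86.8 and 93 CPM at P7 (log2 change -0.71 ± 0.08, adjusted p = 9.14e-06). The largest change among genes of energy transfer was that of Ckmt2, the mitochondrial creatine kinase of muscle, at 194, 202 and 165 CPM at P3 and 533, 448 and 483 CPM at P7 (log2 change 1.38 ± 0.11, adjusted p = 4.71e-07).

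Of 26 genes of glucose uptake and glycolysis, 1 rose and 4 fell, beside 5.62% and 5.73% of all genes, with a median log2 change of -0.19. Under total-count scaling 1 rose and 10 fell, with a median of -0.50. Aldoc, an aldolase best known from brain, was at 5.02, 4.41 and 4.83 CPM at P3 and 1.67, 1.46 and 1.09 CPM at P7 (log2 change -1.76 ± 0.21, adjusted p = 2.83e-05). Slc2a1, the general glucose transporter, was at 29.7, 20.6 and 20.8 CPM at P3 and 15.1, 12.4 and 12.3 CPM at P7 (log2 change -0.84 ± 0.14, adjusted p = 0.000416). Pfkfb2, the heart enzyme that makes the activator of phosphofructokinase, was at 23.5, 23.8 and 27.3 CPM at P3 and 38.1, 51.7 and 49.2 CPM at P7 (log2 change 0.90 ± 0.11, adjusted p = 3.05e-05). Pgk1, phosphoglycerate kinase, was at 636, 623 and 493 CPM at P3 and 425, 366 and 340.1 CPM at P7 (log2 change -0.63 ± 0.13, adjusted p = 0.00144), and its call was lost without P3 sham library 1 (log2 change -0.57), without P3 sham library 2 (-0.58) and without P7 sham library 3 (-0.56). The number of glycolytic genes that fell was 2 without P3 sham library 1 or P7 sham library 3, and 7 without P7 sham library 1.

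Of 20 genes of cholesterol synthesis and uptake 11 fell and none rose, with a median log2 change of -0.60, beside the 5.73% of all genes that fell. Idi1, an isomerase of the early isoprenoid steps, was at 39.6, 40.6 and 27.9 CPM at P3 and 18.4, 15.4 and 14.5 CPM at P7 (log2 change -1.17 ± 0.15, adjusted p = 4.55e-05). Fdps, the synthase of farnesyl diphosphate, was at 30.2, 36.1 and 24.7 CPM at P3 and 17.7, 15.6 and 13.3 CPM at P7 (log2 change -0.97 ± 0.15, adjusted p = 0.0002), and Sqle, the epoxidase that acts on squalene, was at 17.8, 18 and 13.6 CPM at P3 and 10.2, 8.93 and 6.03 CPM at P7 (log2 change -0.98 ± 0.19, adjusted p = 0.00138). In each of these 3 genes all P7 values were below all P3 values. With only the Xist-expressing P3 library kept, the count for cholesterol synthesis and uptake was again 11, and it was 9 to 11 when single sham libraries were left out. Under total-count scaling 17 of the 20 fell, with a median of -0.91.

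Of 19 mitochondrial and metabolic transcription factors 6 rose and none fell, beside the 5.62% of all genes that rose, with a median log2 change of 0.32. Under total-count scaling 5 of them rose and 3 fell, with a median of 0.01. Ppargc1a, the coactivator of mitochondrial biogenesis, was at 109.7, 101 and 116 CPM at P3 and 163, 238 and 229 CPM at P7 (log2 change 0.95 ± 0.12, adjusted p = 3.41e-05). Rxrg, a retinoid X receptor, was at 5.15, 6.35 and 5.47 CPM at P3 and 18.4, 17.5 and 15.5 CPM at P7 (log2 change 1.59 ± 0.14, adjusted p = 1.3e-06). Klf9, a zinc finger factor induced by thyroid hormone and glucocorticoids, was at 18.6, 19.7 and 18.2 CPM at P3 and 48.5, 38.6 and 46.1 CPM at P7 (log2 change 1.24 ± 0.09, adjusted p = 2.1e-07). Thrb, a thyroid hormone receptor, was at 3.52, 4.68 and 3.81 CPM at P3 and 7.34, 7.14 and 8.8 CPM at P7 (log2 change 0.95 ± 0.17, adjusted p = 0.000666), while the partner of Ppargc1a, Esrra, was at 104, 116 and 107 CPM at P3 and 92.8, 79.1 and 90.2 CPM at P7 (log2 change -0.32). Of 13 targets of glucocorticoids and thyroid hormone, 6 rose and 1 fell, and the counts were the same when any single sham library was left out. These were Klf9, Thrb, Hr, Per1, Thrsp and Sgk1, with Fkbp5 lower at log2 change -0.90. Per1, a clock gene that glucocorticoids also induce, was at 28.3, 40.3 and 30.9 CPM at P3 and 79.9, 68 and 71 CPM at P7 (log2 change 1.13 ± 0.14, adjusted p = 3.62e-05). Of 18 clock genes 4 rose and none fell (2 without P7 sham library 1 and 1 under total-count scaling), and the hour of tissue collection was not given in the labels or methods used here. Nr4a1 and Klf4, immediate early transcription factors, rose by 1.39 and 1.07 on the log2 scale, and Fos was at 6.78, 6.77 and 6.8 CPM at P3 and 3.59, 3.16 and 4.36 CPM at P7 (log2 change -0.87). Among 20 cardiac transcription factors Hey2 alone fell and none rose, a share near the 5.73% of all genes that fell. Gata4 was at 197, 205 and 194 CPM at P3 and 209, 173 and 189 CPM at P7.

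**Figure D5:**
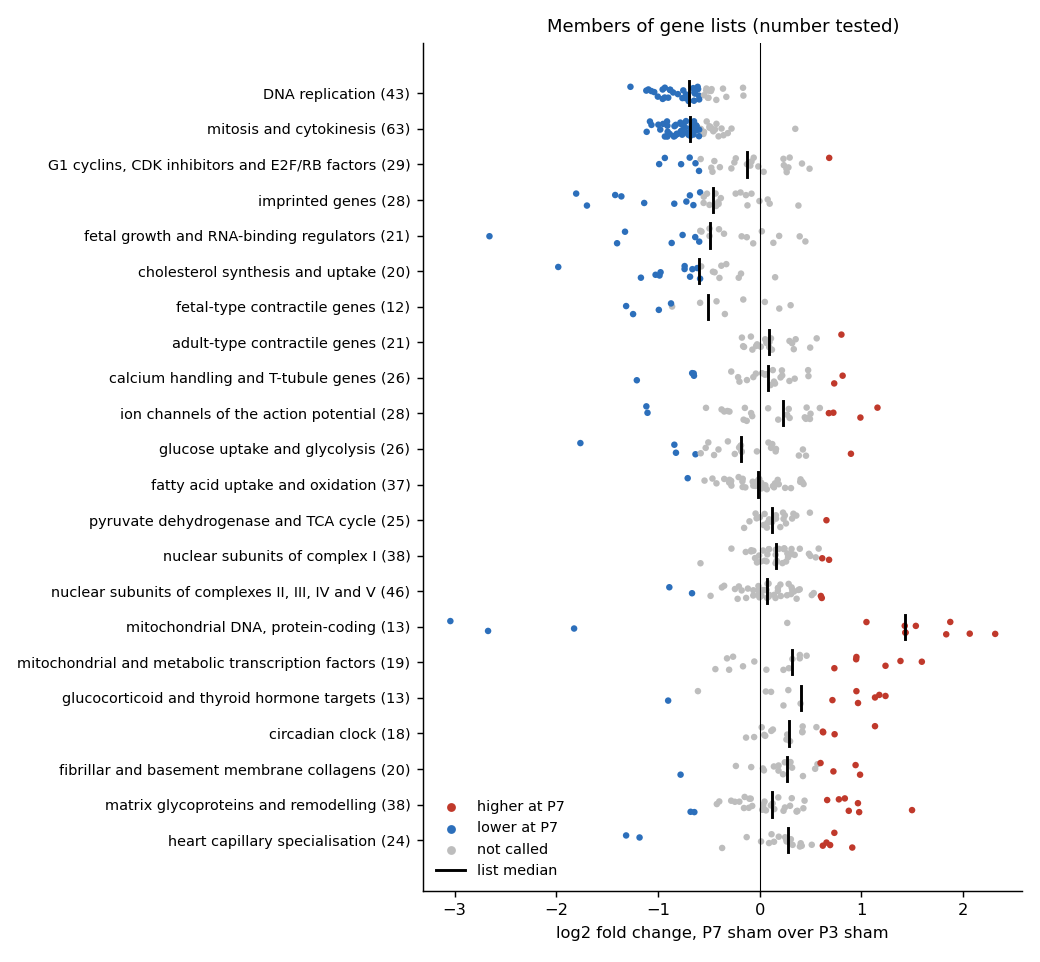
Log2 fold change of P7 sham over P3 sham for each member of 22 gene lists, with the number of members tested in parentheses, genes that rose in red, genes that fell in blue and the list median as a bar. DNA replication and mitosis lie almost wholly below 0, at medians of -0.70 and -0.68, and the adult-type contractile and fuel lists lie around 0.

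Most genes of the cell division machinery fell. All 43 genes of DNA replication had a log2 change below 0, and 30 of them fell, with none higher and a median of -0.70, beside the 5.73% of all genes that fell. Of 63 genes of mitosis and cytokinesis 62 had a change below 0 and 46 fell, with a median of -0.68. Mcm5, a subunit of the helicase that opens replication origins, was at 93.4, 90.4 and 78.5 CPM at P3 and 48, 39.6 and 37.9 CPM at P7 (log2 change -1.06 ± 0.10, adjusted p = 1.98e-06). Cdt1, which loads that helicase, was at 41.5, 39 and 35.5 CPM at P3 and 20.7, 17 and 16.7 CPM at P7 (log2 change -1.09 ± 0.11, adjusted p = 4.33e-06). Uhrf1, which carries DNA methylation through replication, was at 98.6, 89.5 and 89.3 CPM at P3 and 49.7, 43.6 and 35.1 CPM at P7 (log2 change -1.11 ± 0.11, adjusted p = 4.32e-06). Espl1, the separase that releases sister chromatids, was at 36.4, 41.6 and 31.8 CPM at P3 and 20.4, 16.4 and 14.2 CPM at P7 (log2 change -1.11 ± 0.12, adjusted p = 8.45e-06). Cdc20, an activator of the anaphase-promoting complex, was at 54.5, 70.8 and 47.8 CPM at P3 and 37.5, 29.5 and 21.3 CPM at P7 (log2 change -0.98 ± 0.17, adjusted p = 0.000657), and in each of these 5 genes all P7 values were below all P3 values. Cdk1, the mitotic kinase, was at 65.7, 75.6 and 57.2 CPM at P3 and 48.7, 48.1 and 32.6 CPM at P7 (log2 change -0.62 ± 0.14, adjusted p = 0.00293), and its call was lost without P3 sham library 2 (log2 change -0.51) or without P7 sham library 3 (-0.45). Mki67, a proliferation marker, was at 313, 351 and 272 CPM at P3 and 224, 254 and 188 CPM at P7, a log2 change of -0.49 that was below 1.5-fold. With single sham libraries left out, 23 to 31 replication genes and 29 to 53 mitosis genes fell, and the value of 29 was the one without P7 sham library 3. With only the Xist-expressing P3 library kept, 33 genes of DNA replication and 45 of mitosis and cytokinesis fell.

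Control genes of the cell cycle were mixed. Of 29 G1 cyclins, CDK inhibitors and E2F/RB factors, 6 fell and 1 rose, beside 5.73% and 5.62% of all genes, and under total-count scaling 12 fell and none rose. Ccne1, cyclin E1, was at 15.8, 14.9 and 14.1 CPM at P3 and 7.78, 7.96 and 6.87 CPM at P7 (log2 change -0.99 ± 0.13, adjusted p = 4.85e-05). E2f1, an activator of replication genes, was at 41.5, 41.8 and 39.4 CPM at P3 and 25.8, 24.6 and 21.5 CPM at P7 (log2 change -0.77 ± 0.09, adjusted p = 2.72e-05). Ccng1, a cyclin induced by p53, was at 241, 259 and 262 CPM at P3 and 408, 422 and 394 CPM at P7 (log2 change 0.68 ± 0.09, adjusted p = 3.63e-05), a call lost under total-count scaling. The CDK inhibitors Cdkn1a and Cdkn1c were at 42, 49.5 and 37 CPM at P3 and 55.9, 45.9 and 49.5 CPM at P7, and at 28.7, 30.3 and 30.6 CPM at P3 and 29.4, 27.5 and 27.9 CPM at P7, respectively, and neither passed the test (adjusted p = 0.0729 and 0.448). Ccnd2 was at 249.8, 227 and 248 CPM at P3 and 280.5, 305 and 305 CPM at P7 (log2 change 0.30).

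Many promoters of the cell cycle genes that fell held the letters of well-known cell cycle elements. E2F sites bind the E2F factors of the G1/S transition, and the cell cycle homology region (CHR) binds the complexes that time G2/M genes. The windows ran from 250 bases before to 50 bases after the start site in RefSeq's annotation of GRCm38.p6, and both strands were searched for the E2F letters TTTGGCGC, TTTCCCGC, TTTCGCGC and TTTGCCGC and for the CHR letters TTTGAA. Of the 30 replication genes that fell, 26 had a promoter in the table and 13 of these (50%) held an E2F match, against 4.49% of 10965 tested genes and 2.61% of all 27025 promoters. Of the 46 mitosis genes that fell, 38 had a promoter and 29 (76.3%) held a CHR match, against 14.2% of the tested genes and 20.2% of all promoters. A CCAAT box, searched as CCAAT, was in 17 of the 26 and 30 of the 38, against 42.3% of tested genes. The 150 bases upstream of 7 start sites are shown to place these letters, each on the strand of its gene with matches in capitals and the rest in lower case. In Mcm5 (chr8:75109359-75109508, plus strand), Cdc6 (chr11:98908001-98908150, plus strand) and Dtl (chr1:191575545-191575694, minus strand), capitals mark E2F letters. In Espl1 (chr15:102296143-102296292, plus strand), Cdca5 (chr19:6084947-6085096, plus strand) and Cdc20 (chr4:118437344-118437493, minus strand), they mark CHR letters. In Cdk1 (chr10:69352913-69353062, minus strand) they mark both.
Mcm5: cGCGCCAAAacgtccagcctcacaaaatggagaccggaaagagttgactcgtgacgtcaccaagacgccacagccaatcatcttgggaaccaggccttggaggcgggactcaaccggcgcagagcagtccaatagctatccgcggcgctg
Cdc6: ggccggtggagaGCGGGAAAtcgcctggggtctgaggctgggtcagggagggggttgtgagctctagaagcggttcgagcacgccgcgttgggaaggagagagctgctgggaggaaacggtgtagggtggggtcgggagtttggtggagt
Dtl: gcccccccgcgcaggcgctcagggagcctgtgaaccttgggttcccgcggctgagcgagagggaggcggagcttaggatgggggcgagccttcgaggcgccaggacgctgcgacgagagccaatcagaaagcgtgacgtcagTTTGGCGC
Espl1: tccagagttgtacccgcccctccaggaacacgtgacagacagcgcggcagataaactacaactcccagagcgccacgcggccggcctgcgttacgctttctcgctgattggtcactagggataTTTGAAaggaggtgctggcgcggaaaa
Cdca5: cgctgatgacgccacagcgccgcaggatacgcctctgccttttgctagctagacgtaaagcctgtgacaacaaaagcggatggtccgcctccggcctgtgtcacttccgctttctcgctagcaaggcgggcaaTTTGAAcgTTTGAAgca
Cdc20: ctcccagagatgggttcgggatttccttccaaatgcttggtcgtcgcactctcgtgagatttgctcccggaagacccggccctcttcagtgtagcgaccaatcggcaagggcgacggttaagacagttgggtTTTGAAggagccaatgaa
Cdk1: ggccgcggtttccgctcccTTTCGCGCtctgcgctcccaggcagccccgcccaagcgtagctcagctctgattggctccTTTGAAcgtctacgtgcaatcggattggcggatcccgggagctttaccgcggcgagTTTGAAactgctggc
The CHR letters began 27 bases before the start of Espl1, 18 before that of Cdc20 and 17 and 9 before that of Cdca5, close to the start in each. In Cdk1 the E2F letters began 131 bases and the CHR letters 71 and 15 bases before the start. The E2F letters began 8 bases before the start of Dtl, 138 before that of Cdc6 and 149 before that of Mcm5. Cdc6 and Dtl, shown for their letters, fell by 1.00 and 0.93 on the log2 scale. A match is a description of the letters and binding was not measured. List members that did not fall were not tallied apart. The shares therefore do not tell genes that fell from other members of their lists.

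Several genes of fetal growth fell. Of 28 imprinted genes tested 10 fell, 18 did not pass and none rose, beside the 5.73% of all genes that fell, with a median log2 change of -0.46. Of 21 fetal growth and RNA-binding regulators 7 fell and 14 did not pass, with a median of -0.49 and 5 members above 0. Under total-count scaling 18 imprinted genes fell, with a median of -0.77, and 13 of the regulators, with a median of -0.80. Igf2bp1, an RNA-binding protein that stabilizes growth transcripts in the embryo, was at 9.7, 7.34 and 8 CPM at P3 and 1.72, 1.26 and 1.01 CPM at P7 (log2 change -2.66 ± 0.19, adjusted p = 1.71e-07). Dlk1, an imprinted Notch-like ligand of growing tissues, was at 25.2, 18.7 and 35.5 CPM at P3 and 7.63, 6.75 and 9.84 CPM at P7 (log2 change -1.70 ± 0.26, adjusted p = 0.00017). H19, an imprinted noncoding RNA, was at 1256, 1124 and 1130.0 CPM at P3 and 753, 717 and 712 CPM at P7 (log2 change -0.69 ± 0.07, adjusted p = 8.45e-06), while its imprinted neighbor Igf2, a fetal growth factor, was at 1111, 953 and 1055 CPM at P3 and 712, 708 and 757 CPM at P7 (log2 change -0.52, below 1.5-fold). Peg10 and Rtl1, retrotransposon-derived imprinted genes of the placenta, were at 12.3, 11.4 and 10.7 CPM at P3 and 4.48, 4.76 and 4.15 CPM at P7 (log2 change -1.36 ± 0.12, adjusted p = 2.21e-06) and at 2.06, 1.67 and 2.67 CPM at P3 and 0.739, 0.534 and 0.545 CPM at P7 (log2 change -1.80 ± 0.25, adjusted p = 9.96e-05), respectively. Tubb2b, a tubulin of embryonic tissues, was at 123, 127 and 88.8 CPM at P3 and 50.6, 37.7 and 40.3 CPM at P7 (log2 change -1.40 ± 0.13, adjusted p = 2.14e-06), and Tubb5 and Tuba1b fell by 0.94 and 1.08 on the log2 scale. Lin28b was at 2.15, 2.17 and 1.61 CPM at P3 and 1.18, 0.923 and 1.84 CPM at P7 (adjusted p = 0.099).

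Transcripts of trophoblast, the fetal cells of the placenta, were counted at P3 and almost absent at P7. This set was chosen after its counts were seen and comprised pregnancy-specific glycoproteins, placental prolactins, placental Ceacam genes, placental cathepsins and the trophoblast markers Tpbpa and Tpbpb. Of its 56 listed genes 23 passed the filter and 22 of these were called lower, beside 5.73% of all genes, but the choice of the set and a filter passed through the P3 libraries fix this count and nothing is read from it. Of the 22, 20 had no counts in the P7 sham libraries, and against a limit of 3 counts per library 15 of the 20 were at least 4-fold lower, while the counts of the other 5 do not bound the fall at 4-fold. Their summed level was 28.7, 34.7 and 36.0 CPM in the P3 sham libraries and 0.542, 0.486 and 0.670 CPM in the P7 sham libraries. In counts these sums were 670, 912 and 783 at P3 and 11, 10 and 16 at P7. PAB libraries held 696 to 1014 such counts at P3 and 5 and 14 at P7. Psg21, a pregnancy-specific glycoprotein, had 80, 105 and 89 counts at P3 and 0 in each P7 library, which is at least 26.0-fold lower at P7. That limit covers counting error only. Over the series, 26 genes had at least 3 counts in each of the 6 P3 libraries and 0 counts in the 5 P7 libraries, 21 of them in these families, and the reverse was found for 0 genes. By the same rule in the sham libraries alone, 38 genes were counted at P3 and not at P7, 25 of them in these families, and 10 genes were counted at P7 and not at P3. Which cells or which step of handling these reads came from was not tested, and age and any batch that went with age cannot be told apart. Without these families the number of genes that fell was 884.

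Several matrix genes rose. Of 38 genes of matrix glycoproteins and remodelling 7 rose and 2 fell, and of 20 collagens 4 rose and 1 fell, beside 5.62% and 5.73% of all genes tested, with medians of 0.12 and 0.27 on the log2 scale. The falls are near the share over all genes. Under total-count scaling 3 matrix genes rose and 4 fell, with a median of -0.19, and 2 collagens rose and 1 fell, with a median of -0.04. Mfap4, a microfibril-associated protein of elastic fibers, was at 31.4, 32.7 and 35.7 CPM at P3 and 97.4, 86.5 and 97.9 CPM at P7 (2.83-fold higher, adjusted p = 1.42e-09). Lum, the collagen-binding proteoglycan lumican, was at 73.4, 72.5 and 73.7 CPM at P3 and 134, 154 and 145 CPM at P7 (log2 change 0.98 ± 0.09, adjusted p = 1.47e-06). Eln, elastin, was at 537, 434 and 404 CPM at P3 and 981, 777 and 699 CPM at P7 (log2 change 0.84 ± 0.13, adjusted p = 0.000181), and Col12a1, a collagen of fibril surfaces, fell by 0.78 on the log2 scale. The main fibrillar collagens did not pass, with Col1a1 at 839, 999 and 975 CPM at P3 and 890.0, 725 and 778 CPM at P7, and Col3a1 at 1914, 2095 and 2219 CPM at P3 and 2763, 2751 and 2851 CPM at P7 (log2 change 0.43, below 1.5-fold). Of the 8 fibroblast markers, Dcn, Lum and Mfap5 rose, and the marker median was 0.44, with log2 changes of 0.39 for Pdgfra and -0.22 for Tcf21, both below 1.5-fold. The summed level of the 8 markers ranged from 3296 to 3767 CPM at P3 and from 4388 to 4530 CPM at P7, and its part in the matrix changes was not tested.

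Of 24 genes of heart capillary specialization 5 rose and 2 fell, beside 5.62% and 5.73% of all genes, and under total-count scaling none rose and 3 fell. Plvap, a diaphragm protein of fenestrated and immature vessels, was at 27.5, 26.8 and 24.9 CPM at P3 and 13.9, 10.9 and 10.3 CPM at P7 (log2 change -1.18 ± 0.13, adjusted p = 1.63e-05). Angpt1, the vessel-stabilizing ligand of Tek, was at 17.4, 19.1 and 33.1 CPM at P3 and 8.67, 8.93 and 10.3 CPM at P7 (log2 change -1.31 ± 0.22, adjusted p = 0.000396), and its antagonist Angpt2 was at 3.26, 3.61 and 3.95 CPM at P3 and 6.4, 6.41 and 5.24 CPM at P7 (log2 change 0.73 ± 0.18, adjusted p = 0.00497). The 8 endothelial markers had a median of 0.28 (-0.03 under total-count scaling) and none reached 1.5-fold with the adjusted p needed, with Pecam1 at 217, 201 and 209 CPM at P3 and 291, 277 and 271 CPM at P7. Of 8 smooth muscle and pericyte markers 2 rose and 1 fell (1 and 2 under total-count scaling), with a median of 0.34 and 3 members below 0, and the one that fell was Cnn1. Rgs5, a pericyte marker, was at 353, 354 and 321 CPM at P3 and 726, 792 and 738 CPM at P7 (log2 change 1.13 ± 0.08, adjusted p = 2.24e-07), and Myh11, the smooth muscle myosin, was at 20.9, 19.8 and 27.8 CPM at P3 and 38.3, 37.3 and 42.3 CPM at P7 (log2 change 0.79 ± 0.11, adjusted p = 0.00012). Igfbp7, a secreted protein of vessel walls, was at 84.7, 91.9 and 91.7 CPM at P3 and 213, 172 and 181 CPM at P7 (log2 change 1.07 ± 0.08, adjusted p = 2.72e-07).

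Calls among antigen presentation genes depended on 1 library. The counts of immune, blood and atrial genes given next stand beside 5.62% of all genes that rose and 5.73% that fell. Of 15 genes of antigen presentation 6 rose, with a median of 0.71, but H2-K1, a class I histocompatibility gene, was at 32.4, 35.8 and 42.9 CPM at P3 and 210.4, 39.7 and 43.7 CPM at P7, and B2m, its partner chain, was at 86.7, 78.1 and 79.1 CPM at P3 and 318, 99.7 and 95.1 CPM at P7. P7 sham library 1 was thus far above the other 2 P7 libraries for both. Macrophage markers summed to 163 CPM in P7 sham library 1 and to 118 and 124 CPM in the other 2. Without P7 sham library 1, 1 gene of antigen presentation rose and the median was 0.26. With only the Xist-expressing P3 library kept, the median for antigen presentation was 0.69 and no call was left, in a fit with 1 P3 sham library. C3, the central complement protein, was at 163, 187 and 241 CPM at P3 and 73.2, 40.6 and 23.4 CPM at P7 (log2 change -2.11 ± 0.30, adjusted p = 0.0001), and of 16 complement genes 6 fell and 3 rose (5 to 6 fell without single sham libraries). Under total-count scaling 6 complement genes fell and none rose, and with that same P3 library alone the balance turned to 2 that fell and 4 that rose. Of 5 mast cell markers 3 fell, with a median of -0.77, and with that P3 library alone 1 fell, with a median of -0.73. Of 8 erythroid markers 2 fell, with a median of -0.73. Hba-a2, an alpha globin, was at 1266, 1202 and 734 CPM at P3 and 707, 523 and 589 CPM at P7 (log2 change -0.82, adjusted p = 0.0265), and no erythroid marker passed without P3 sham library 1 or 2 or without P7 sham library 2 or 3, while 4 fell without P3 sham library 3. Under total-count scaling 5 erythroid and 4 atrial markers fell, and 4 genes of antigen presentation rose. The atrial markers had a median of -0.60 with 2 of 7 lower, and Nppa, the atrial natriuretic peptide of fetal and stressed ventricle, was at 139.9, 171 and 64.5 CPM at P3 and 91.5, 69.1 and 56.3 CPM at P7, where the 2 ages overlapped. The atrial median was -0.02 with only the Xist-expressing P3 library kept.

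The age change was also measured in banded hearts, with 3 P3 PAB and 2 P7 PAB libraries, and the difference between the 2 age changes passed the test for 4098 of 15808 genes (25.9%). Of the 1794 genes that rose or fell in sham hearts 529 were among these. In banded hearts 9.50% of all genes rose with age and 8.20% fell. Of the 888 genes that rose in sham hearts 320 also rose with age in banded hearts, 15 fell and 553 did not pass, and of the 906 that fell 374 also fell, 19 rose and 513 did not pass. For Tnni1 the log2 change was -1.24 in sham and 0.00 in banded hearts (adjusted p of the difference = 6.34e-06). Ppargc1a changed by 0.95 in sham and -0.18 in banded hearts (adjusted p = 0.000567), and Angptl4 by -2.06 and -0.17 (adjusted p = 1.86e-06). Hcn2 changed by 1.16 and -0.57 (adjusted p = 6.14e-05), so the rise was seen in sham hearts and the banded value was below 0. In contrast, the difference did not pass for Ckmt2, at 1.38 and 1.44 (adjusted p = 0.814), for Ankrd23, a stretch-responsive titin-binding protein, at 1.32 and 1.40 (adjusted p = 0.784), or for Igfbp7 (adjusted p = 0.765). The 43 replication genes had medians of -0.70 in sham and -0.67 in banded hearts, and the 63 mitosis genes -0.68 and -0.65. Complex I subunits had medians of 0.16 and 0.68, and across 15220 genes the age change correlated with exon length at Spearman's rho -0.0348 in sham and -0.368 in banded hearts, a description over genes, which are not independent. All banded libraries were Y-expressing, so operation and that class cannot be told apart at P7. A fit with that class as a term gave 2291 differing genes, and a fit without P7 PAB library 1 gave 2645.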

How the data were processed

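The deposited file was a table of raw read counts per gene. Per the labels and the submitters' processing notes, the authors aligned paired-end reads to GRCm38 (mm10) with STAR 2.5.2b. The counting tool, its strand setting and its handling of reads with several matches are not given in the sources used here. Libraries were grouped by their titles. No column was left out. The gene members, lists and tests were chosen with earlier results of these data known.

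From the counts, edgeR 4.0.16 in R 4.3.3 kept 15808 of 50600 genes (filterByExpr), scaled libraries by the trimmed mean of M values and fitted all 11 libraries as 4 groups with a quasi-likelihood model, so that the groups shared the estimate of spread. A call needed a fold change of 1.5 and a Benjamini-Hochberg adjusted p of 0.05 over all genes. A count of 0 was given an upper limit of 3 counts, and such limits cover counting error only. The chi-square between replicates was 4.30 to 12.7 per gene, so no 2 libraries of a group were copies. Same-numbered P3 and P7 sham libraries did not deviate together (r = 0.035, -0.016 and 0.065), and no block was used.

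Named genes were the 12 largest rises and falls with at least 10 CPM and no overlap, the 8 largest gains and losses in CPM, up to 5 called members of each list with at least 1 CPM, genes listed as well known, isoform pairs and markers. A few genes that met this rule are not reported here. Cdc6, Dtl, Psg21 and list members given by name only were chosen after their values were seen. Lists are described by counts and medians without a set test. Isoform ratios used a prior count of 0.5. Nuclear copies of mitochondrial genes were found with BLAST+ 2.17.0 (at least 95% identity over 100 bases). Gene symbols were matched to RefSeq tables of GRCm38.p6 for promoters. On simulated counts for P7 sham against P3 sham over 15808 genes, 85.5% of 200 genes changed 2-fold were recovered, with 7 false calls. The simulation held no mitochondrial shift and no Xist and Y difference, so it does not give the error of the real comparison. Alternatives were other scalings and filters, DESeq2 1.42.0, sham libraries alone, a replicate block, the Xist class, single libraries left out and other fold limits. Protein-coding genes only, summed mitochondrial copies, antigen genes without P7 sham library 1 and the table without placental families were added after the data were seen.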

Additional observations from a re-analysis of the deposited data

Results flagged for a closer look

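The genes below had an age change that differed between banded and sham hearts in a test of the difference itself (edgeR, adjusted p no larger than 0.05). Values are the log2 age change in banded hearts minus that in sham hearts. Most of the genes were named for a large change in sham hearts, a choice that favors smaller changes in banded hearts. All banded libraries were Y-expressing and all P7 sham libraries were Xist-expressing, P7 PAB had 2 libraries, and the age change followed exon length in banded hearts, so the part of each in these differences was not tested.

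Rises that were smaller in banded hearts were those of Hmcn2 (-2.30), Mapt (-1.58), Xirp2 (-1.12), Vtn (-1.11), Lrtm1 (-0.839) and the pseudogene Fabp3-ps1 (-0.896). Ppargc1a rose in sham hearts and was at -0.18 over age in banded hearts (difference -1.13). Erdr1 went in opposite directions (-3.03), and it lies on the sex chromosomes.

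Falls that were smaller in banded hearts or near 0 there were those of Angptl4 (1.89), Tmem254c (1.73), Acot1 (1.25), Tnni1 (1.25), Myh7 (1.00), Bmp7 (0.996), Cdk1 (0.765), Slc2a1 (0.699) and Tuba1b (0.601). Nppa was -0.79 over age in sham and 2.21 in banded hearts, a difference of 3.00, with overlapping sham values.

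Mitochondrial genes with no nuclear copy found that rose less in banded hearts were mt-Atp8 (-0.879), mt-Nd5 (-0.865), mt-Nd6 (-0.835) and mt-Cytb (-0.336), and the difference for mt-Nd1 (-0.110) did not pass. Those with nuclear copies whose difference passed had the differences mt-Nd4 -0.464, mt-Nd2 -0.379, mt-Nd3 0.754, mt-Co1 -0.280, mt-Co3 2.76, mt-Co2 2.70 and mt-Atp6 1.39, and the copies themselves Gm28439 -2.14, Gm13340 -0.551, Gm28661 -0.278 and Gm28438 0.335. How reads were divided among near-identical copies was not tested.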

How the results depend on the processing

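Of the 888 rises and 906 falls, scaling by the total count gave 397 and 2879, with the same direction for each shared gene, and the median of all genes moved by -0.31. A stricter filter on low counts gave 586 rises from fewer genes tested. Without a fold limit there were 2566 rises and 2650 falls, and with a limit of 2-fold 389 and 306, with 559 genes differing in their age change between operations. For that difference the Xist class as a term gave 2291 genes and the Xist-expressing P3 sham library alone 2099, against 4098. When single libraries were left out the rises ranged from 747 to 921, the falls from 766 to 994 and the differing genes from 2645 (without P7 PAB library 1) to 4784. DESeq2 gave 752 rises and 815 falls, and the replicate block, with libraries that shared only a number, gave 897 and 920. With the Xist class as a term Uty, Ddx3y, Eif2s3y and Kdm5d turned to 2.73, 1.73, 0.73 and 1.42, and with the Xist-expressing P3 library alone to 2.72, 1.72, 0.72 and 1.41, with at most 10 counts in any Xist-expressing library and none past the test. Summed with nuclear copies mt-Atp6, mt-Co2 and mt-Co3 turned to 1.42, 1.16 and 0.90. Of 167 named genes that passed, 32 lost the call under total-count scaling, 9 with DESeq2 and 28 with the Xist class as a term. Without single sham libraries 8 to 18 lost it. The number was 0 under RLE size factors, without mitochondrial genes in the scaling, without a filter, with the block and with sham libraries alone. In the fit of sham libraries alone Uty, Ddx3y, Kdm5d and Gp9 did not pass the filter on low counts and were not tested. Among isoform ratios, 159 of 168 values under alternatives moved by less than the replicate SD and 9 by more. The spread of 3 libraries limits the genes of few counts most, and 34792 genes were too low to test.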

Other observations

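Counts for the cytosolic ribosomal proteins depended on the scaling. Of 84 genes tested, 2 rose and 4 fell, beside 5.62% and 5.73% of all genes, with a median log2 change of -0.08, and Rps21 fell by 0.73 on the log2 scale. From 2 to 6 fell when single sham libraries were left out, and 23 fell under total-count scaling, with a median of -0.39. Rpl3l, the muscle-specific form of a large subunit protein, was at 6.52, 7.22 and 6.89 CPM at P3 and 14.6, 11.8 and 12.8 CPM at P7. In banded hearts the median of the 84 genes was 0.54.

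Of 1350 long noncoding RNAs 110 rose (8.15%) and 46 fell (3.41%), beside 5.62% and 5.73% of all genes. The 8 epicardial markers had a median log2 change of -0.46 with 2 lower, and under total-count scaling 6 were lower, with a median of -0.77. Of the markers of lung, thymus and fat 1 of 6 passed the filter in each list, with Rag2 and Scgb1a1 at 0 counts in all 11 libraries.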
